A study of Rattus norvegicus with 4 samples.

Results

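Many microRNA (miRNA) hairpins give rise to a pair of mature RNAs, and in the older naming style the less abundant arm carries an asterisk. In small RNA libraries of rat liver, 242 of the 680 listed rat miRNA names end in an asterisk. The 235 starred names described here were picked out by their names. The 7 others (miR-122*, miR-126*, miR-140*, miR-322*, miR-365*, miR-423* and miR-511*) were left out by the same rule, although they were seen in each library and held more reads than the 235 together, 15082, 16530 and 10988 in the 3 distinct libraries described below. Each starred name was compared with the row of the same name without the asterisk, called the unstarred name. Such a row exists for 198 of the 235. Of the other 37 starred names, 36 carry a locus number, as in miR-30c-2*, and share an unstarred row with other loci. The remaining name, miR-125b*, has none. miR-125b-5p and miR-125b-3p are listed beside it, and neither was used as its partner.

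The libraries were made from total RNA of liver labelled as hepatic fibrosis tissue (2 samples) or as hepatic normal tissue (2 samples). Strain, age, sex and the agent that produced the fibrosis are not stated in the labels, nor whether the replicates came from separate animals. Replicate 2 of the fibrosis group and replicate 2 of the normal group have the same value at all 680 names and were counted once, as the shared library, whose tissue the labels do not settle. The column header in the normal group's copy is not that sample's title, while the header in the fibrosis group's copy is. The 3 distinct libraries, replicate 1 of the fibrosis group (fibrosis 1 below), replicate 1 of the normal group (normal 1) and the shared library, were scaled by the authors to 6951148, 7070374 and 6357069 reads, and 50.5% to 52.5% of these reads fell on listed miRNAs. The hepatocyte miRNA miR-122 took 47.2% to 50.9% of the listed reads, and the neuronal miR-124 had 0 reads in each library. One read equals 0.1439, 0.1414 and 0.1573 reads per 1000000 (RPM) in the 3 libraries, so a name with 0 reads may still stand at up to 0.432, 0.424 and 0.472 RPM. These limits and all intervals below cover counting error only, because PCR copies cannot be recognised without molecular identifiers.

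A miRNA hairpin is cut by Drosha in the nucleus and by Dicer in the cytoplasm into a short duplex. Argonaute usually keeps the strand whose 5′ end is less stably paired, often with a 5′ U or A, and the other strand is degraded. The retained strand, the guide, recognises messenger RNAs mainly through its seed, bases 2 to 8 from the 5′ end, so the arms of the same hairpin address different targets. The asterisk records an early judgement of which arm is the minor product, and for some hairpins that judgement differs between tissues.

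The mature sequences of the most abundant arms among the 235 show that each seed differs from that of its unstarred partner. Of the 12 highest, 10 are shown, without miR-455* and miR-151*. They were read from RefSeq (build GRCr8), 5′ to 3′, with the seed in capitals. The arm that carries the asterisk follows from the locus number for miR-664-2* and miR-30c-2*, and for the others from the naming history of the miRNA.
miR-664-2* (miR-664-2-5p): cUGGCUGGggaaaaugauugg
miR-664 (miR-664-3p): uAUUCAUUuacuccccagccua
miR-30a* (miR-30a-3p): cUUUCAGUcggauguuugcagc
miR-30a (miR-30a-5p): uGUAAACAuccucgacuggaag
miR-30c-2* (miR-30c-2-3p): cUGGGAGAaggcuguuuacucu
miR-30c (miR-30c-5p): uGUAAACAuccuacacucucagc
miR-22* (miR-22-5p): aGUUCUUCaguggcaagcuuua
miR-22 (miR-22-3p): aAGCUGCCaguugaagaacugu
let-7d* (let-7d-3p): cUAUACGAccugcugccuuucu
let-7d (let-7d-5p): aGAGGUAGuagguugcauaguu
miR-23b* (miR-23b-5p): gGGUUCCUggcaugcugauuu
miR-23b (miR-23b-3p): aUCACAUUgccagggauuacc
miR-28* (miR-28-3p): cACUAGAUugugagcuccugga
miR-28 (miR-28-5p): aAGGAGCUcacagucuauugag
miR-25* (miR-25-5p): aGGCGGAGacacgggcaauugc
miR-25 (miR-25-3p): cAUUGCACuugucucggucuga
miR-221* (miR-221-5p): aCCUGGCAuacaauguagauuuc
miR-221 (miR-221-3p): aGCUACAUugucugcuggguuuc
miR-505* (miR-505-5p): gGGAGCCAggaaguauugauguu
miR-505 (miR-505-3p): gUCAACACuugcugguuucc
The unstarred miR-30a and miR-30c have the same seed, and their starred arms do not. None of the 10 starred arms shown begins with U.

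Starred names were sparse. Of the 235, 61 had at least 1 read in fibrosis 1 (26.0%), 61 in normal 1 (26.0%) and 62 in the shared library (26.4%). The corresponding shares of the 438 names without an asterisk were 41.6%, 39.0% and 38.1%. Over the 3 libraries 84 starred names were seen (35.7%), of which 43 were seen in all 3 libraries, 14 in 2 and 27 in 1, and 151 were seen in none. Many rested on very little: 20 of the 84 had 1 read in all libraries together, and 11 had 2. With at least 3 reads required in 1 library, 42 names were counted, and with at least 10 reads 24. The median total of a detected starred name was 5 reads, against 47 for a detected unstarred name. Among names with 10 or more reads in total, each of the 30 starred names and each unstarred name was seen in all 3 libraries.

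The 235 starred names together held 929 reads in fibrosis 1, 1057 in normal 1 and 827 in the shared library. These were 0.0265% (95% exact binomial interval 0.0248 to 0.0282), 0.0289% (0.0272 to 0.0307) and 0.0248% (0.0231 to 0.0265) of the listed reads. A few names held most of them: the 4 most abundant starred names of each library took 49.0%, 48.1% and 42.8% of its starred reads, and the 10 most abundant 71.9%, 74.2% and 71.0%.

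The most abundant of the 235 was miR-664-2*, from a hairpin within the span of Rab3gap2 (chromosome 13, 99324650 to 99324708 in build GRCr8). It had 139 reads in fibrosis 1, 169 in normal 1 (23.9 RPM) and 115 in the shared library (18.1 RPM). miR-30a*, the minor arm of a member of the widely expressed miR-30 family (chromosome 9, 33233941 to 33234011), stood at 22.2, 19.7 and 9.60 RPM in the same order. miR-30c-2*, from the neighbouring hairpin on that chromosome (33253682 to 33253765), stood at 10.9, 13.9 and 15.7 RPM. The shared library was thus the lowest for miR-30a* and the highest for miR-30c-2*. miR-22*, the opposite arm of a broadly expressed miRNA, stood at 12.4, 14.4 and 12.3 RPM. These 4 were the only ones of the 235 that averaged 10 RPM or more across fibrosis 1 and normal 1.

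Below them, miR-455*, from a hairpin within the collagen gene Col27a1, stood at 6.19, 7.21 and 9.60 RPM. let-7d* stood at 5.61, 8.20 and 7.71 RPM, and miR-23b*, from the cluster that also encodes miR-27b, at 4.75, 8.20 and 6.92 RPM. Fibrosis 1 held the lowest value of all 3 of these. miR-28*, within the span of Lpp, stood at 6.19, 6.22 and 3.15 RPM. miR-25*, within the replication gene Mcm7, stood at 3.45, 4.10 and 6.13 RPM, and miR-221*, whose partner represses a cell cycle inhibitor, at 3.88, 5.09 and 3.15 RPM. The shared library was lowest for miR-28* and miR-221* and highest for miR-25*. miR-151*, within the focal adhesion kinase gene Ptk2, stood at 4.03, 2.69 and 2.67 RPM, and miR-505* at 2.88, 3.68 and 2.83 RPM. These 12 have the highest mean of the 235 over the 3 libraries.

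**Figure D1:**
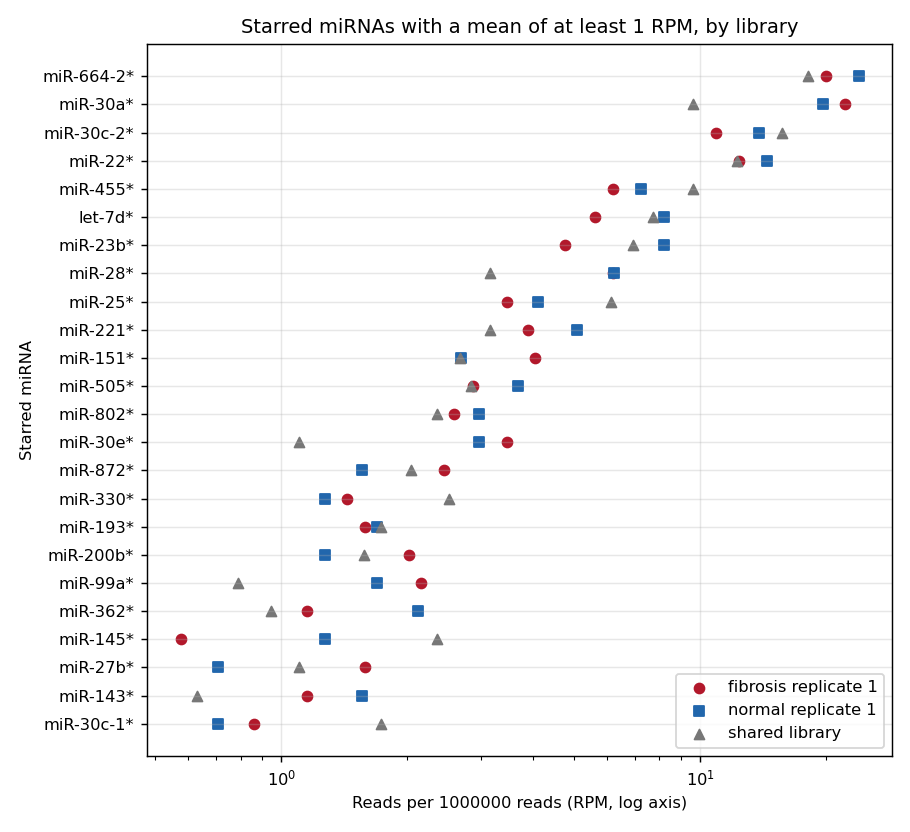
Level of each starred name whose mean over the 3 distinct libraries reaches 1 RPM (horizontal log axis, RPM), with a point for each library and no error bars. miR-664-2* lies between 18.1 and 23.9 RPM, and the shared library sits below both others for miR-30a*, miR-28* and miR-30e*.

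The asterisk did not always mark the lesser arm. Among 76 pairs with at least 20 reads over both arms and the 3 libraries, the starred name had more reads than the unstarred name in 7: miR-330*, miR-455*, miR-362*, miR-802*, miR-28*, miR-505* and miR-151*. miR-455* had 43, 51 and 61 reads against 3, 4 and 2, a starred share of 93.5% in fibrosis 1 (82.1 to 98.6), 92.7% in normal 1 (82.4 to 98.0) and 96.8% in the shared library (89.0 to 99.6). miR-330*, within the span of Eml2, had 10, 9 and 16 reads, while miR-330 was listed at 0 in each library. With 3 reads as the limit that a count of 0 allows, here and below, 0 of 35 reads leaves room for an unstarred share of up to 8.57%. miR-28* took 70.5% (57.4 to 81.5), 73.3% (60.3 to 83.9) and 60.6% (42.1 to 77.1) of its pair. The interval in the shared library included 50%, and those in the other libraries did not.

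miR-802*, whose partner acts in hepatic glucose metabolism, took 72.0% (50.6 to 87.9), 70.0% (50.6 to 85.3) and 78.9% (54.4 to 93.9). miR-362*, from the miRNA cluster within the chloride channel gene Clcn5, took 66.7% (34.9 to 90.1), 88.2% (63.6 to 98.5) and 100% (54.1 to 100) on 8, 15 and 6 starred reads. miR-505* took 69.0% (49.2 to 84.7), 70.3% (53.0 to 84.1) and 62.1% (42.3 to 79.3). miR-151* was the least lopsided of the 7, at 73.7% (56.9 to 86.6), 48.7% (32.4 to 65.2) and 45.9% (29.5 to 63.1), so that the starred arm led in fibrosis 1 only. Its intervals overlapped between the libraries. Without fibrosis 1 the pairs in which the starred arm led numbered 6. They also numbered 6 without normal 1 and 6 without the shared library. In these cases miR-362* and miR-330*, respectively, still led but fell under the minimum of 20 reads in a pair.

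Where a starred name has a locus number, its share can be taken only against the unstarred row that all loci of that miRNA share. Counted so, the starred name led in 3 further pairs. miR-664-2* had 423 reads, and miR-664 was listed at 0 in each library, which allows an unstarred share of up to 0.709%. miR-664-1*, from another locus, also had 0 reads, although RefSeq gives the starred arms of the 2 loci sequences that differ at 1 of 21 bases.
miR-664-1* (miR-664-1-5p): cUGGCUGGggaaaaagauugg
miR-664-2* (miR-664-2-5p): cUGGCUGGggaaaaugauugg
miR-30c-2* took 76.0% (66.4 to 84.0), 73.1% (64.8 to 80.4) and 84.0% (76.2 to 90.1) against miR-30c. miR-30c-1*, which differs from it at 3 of 22 bases and lies within Nfyc on another chromosome, had 6, 5 and 11 reads against 24, 36 and 19 on miR-30c, a pooled share of 21.8% (14.2 to 31.1). miR-466b-2*, from repeat-like hairpins within Sfmbt2, had 14 reads against 6.
miR-30c-1* (miR-30c-1-3p): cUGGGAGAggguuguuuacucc
miR-30c-2* (miR-30c-2-3p): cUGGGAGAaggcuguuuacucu

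**Figure D2:**
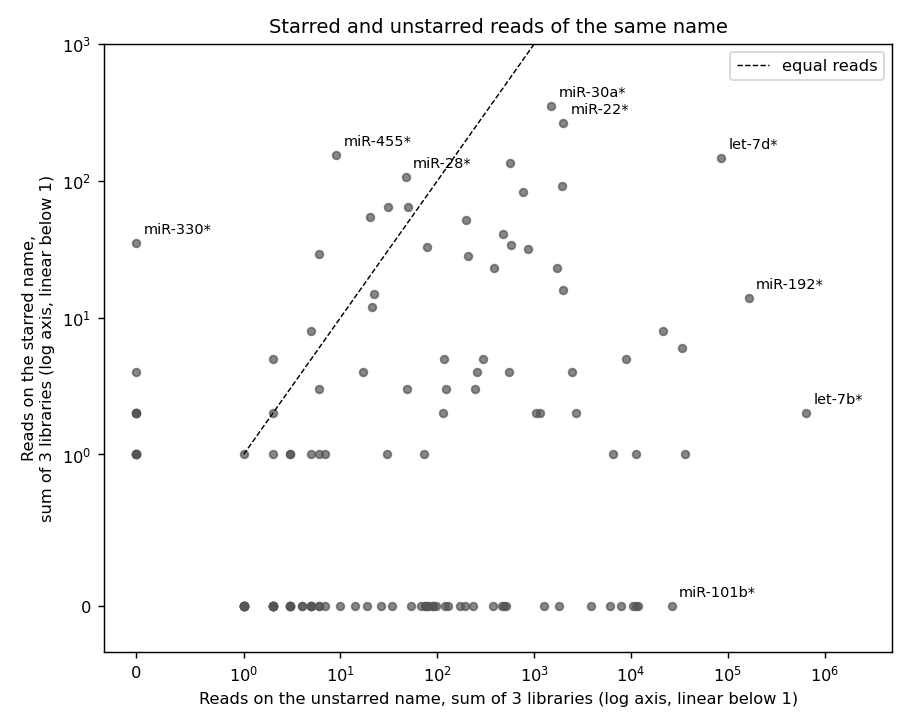
Reads on the starred name (vertical) against reads on the unstarred name (horizontal), both summed over the 3 libraries on log axes that are linear below 1, for each of the 131 same-name pairs with any read. The points above the dashed line of equal reads include miR-455*, miR-28* and miR-330*, and let-7b* lies far to the right with 2 reads.

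In a further 9 pairs the starred arm took between 10% and 50% of the reads. miR-30a* took 22.3% (19.2 to 25.5), 18.5% (15.8 to 21.4) and 14.8% (11.5 to 18.6). miR-30e*, from the same family, took 22.9% (15.2 to 32.1), 22.6% (14.6 to 32.4) and 13.7% (5.70 to 26.3). miR-22* took 12.3% (9.93 to 14.9), 11.5% (9.49 to 13.8) and 11.6% (9.28 to 14.3), the steadiest share of this class. miR-23b* took 15.3% (10.8 to 20.9), 20.6% (16.1 to 25.8) and 21.7% (16.2 to 28.0). The others were miR-145*, miR-150*, miR-144*, miR-200b* and miR-223*, the last with 4 starred reads in all.

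At the other end, 29 pairs had no starred read, 9 had a share above 0 of at most 0.1%, and 6 one above 0.1% of at most 1%. Among these same-name pairs the smallest shares above 0 were those of let-7b* and let-7e*, from a family that represses growth genes. The locus-numbered let-7c-2* and let-7a-1* also had very small pooled shares, 0.000438% against let-7c and 0.000637% against let-7a. let-7b* had 2 reads against 642377 on let-7b, and let-7e* 1 read against 35752 on let-7e. let-7i* had 1 read against 6435. let-7d* had the most starred reads of the family, 39, 58 and 49, but let-7d had 587 reads for each of them, a pooled share of 0.170%. miR-192*, opposite a hepatocyte miRNA, had 14 reads against 165209, miR-29a*, opposite a repressor of collagen genes, 6 against 33503, and miR-21*, opposite a miRNA raised in many injuries, 8 against 21347. Of the 27 pairs with at least 1000 unstarred reads, 9 had no starred read. miR-101b* had 0 beside 26210 reads, which allows a share of up to 0.0114%. The others were miR-320* (0 beside 11773), miR-26b* (11201), miR-107* (10569), miR-26a* (7793), miR-152* (6022), miR-101a* (3898), miR-185* (1814) and miR-16* (1276). miR-451*, whose hairpin is cut by Argonaute without Dicer and leaves no second strand, had 0 beside 67 reads, a depth that allows a share of up to 4.48%.

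Over the 76 pairs the median pooled starred share was 0.118%. This median lies among pairs with few or no starred reads and moved with most choices: it was 0.163% with at least 100 reads in a pair, 0.0155% with at least 1000, 0.0653% with at least 10 and 0.0277% with the locus-numbered names included. Without normal 1 it was 0.0228% and without the shared library 0.0229%. It was 0.104% without fibrosis 1 and 0.122% as the mean of the libraries' shares. For comparison, 17 pairs that the files name by 5p and 3p instead of an asterisk had a median share of the lesser arm of 1.53%. In the 76 starred pairs it was 0.0653%, and the lesser arm exceeded 10% in 14 of 76 (18.4%) and in 4 of 17 (23.5%). The difference between these kinds of names was not tested.

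Starred names were seen more often beside a more abundant unstarred arm, up to about 1000 unstarred reads. They were seen in 11 of 78 pairs with 0 unstarred reads (14.1%), in 13 of 44 with 1 to 9 (29.5%), in 11 of 25 with 10 to 99 (44.0%), in 15 of 24 with 100 to 999 (62.5%), in 11 of 16 with 1000 to 9999 (68.8%) and in 7 of 11 with 10000 or more (63.6%). The median number of starred reads, where any were seen, was 2, 1, 15, 23, 5 and 6 at these levels in the same order. Across the 57 pairs with both arms seen, Spearman's rho between the starred and unstarred reads was 0.22, given as a description, since both arms come from the same libraries and miRNAs are not replicates. The 11 starred names seen without their unstarred name were miR-330* with 35 reads, miR-421* with 4, and 9 names with 1 or 2 reads each.

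**Figure D3:**
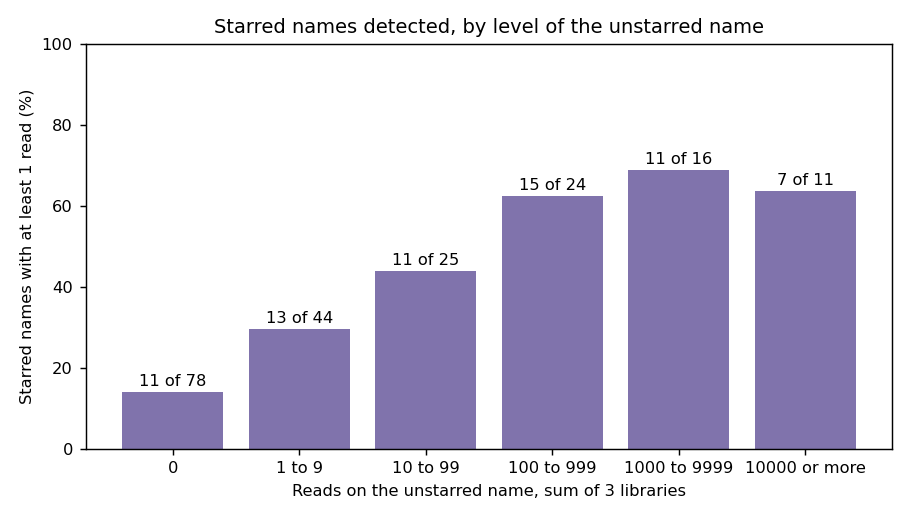
Percentage of starred names with at least 1 read in any of the 3 libraries (vertical), by the number of reads on the unstarred name summed over the libraries (horizontal), with the counts above each bar. The percentage rises from 14.1% with 0 unstarred reads to 68.8% at 1000 to 9999 reads and stands at 63.6% above that.

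Few arm shares stood apart between libraries, and most pairs could show only a large difference: of the 76, 29 had 0 starred reads, 22 had 1 to 9 and 25 had 10 or more. Fibrosis 1 and normal 1 had overlapping 95% intervals of the share in each of the 76 pairs, and in each of 100 pairs when the left-out starred names and the 5p and 3p names are included (0% apart). The shared library stood apart from fibrosis 1 in 3 of the 76 pairs, miR-30a*, miR-25* and miR-145*, and from normal 1 in 1, miR-25*, against 3% of the 100 pairs in each comparison. miR-25* took 3.06% (1.97 to 4.52) in fibrosis 1, 3.64% (2.45 to 5.18) in normal 1 and 8.46% (6.08 to 11.4) in the shared library. miR-145*, opposite a smooth muscle miRNA, took 5.88% (1.63 to 14.4), 8.49% (3.96 to 15.5) and 25.4% (15.0 to 38.4), on 4, 9 and 15 starred reads. Pearson's r of the log2 arm ratio was 0.98 between fibrosis 1 and normal 1 (31 pairs with both arms seen), 0.98 between fibrosis 1 and the shared library (31 pairs) and 0.97 between normal 1 and the shared library (33 pairs). It describes the wide range of shares and has no test. Among 16 pairs with at least 30 starred reads the median absolute difference of the log2 arm ratio was 0.26, 0.59 and 0.46 in these comparisons, and the largest was 1.56, 1.80 and 1.29.

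**Figure D4:**
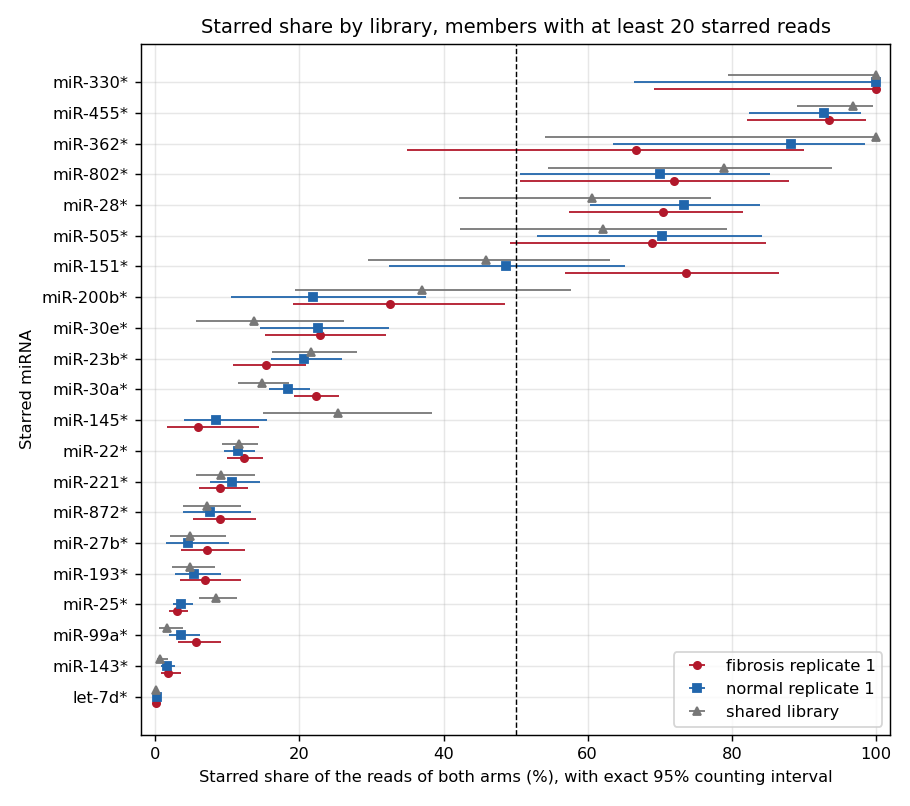
Starred share of the reads of both arms (horizontal, %) for the members with at least 20 starred reads and a same-name partner, with a point for each library and bars for the exact 95% counting interval. miR-330* to miR-505* lie above the dashed line at 50% in each library, and the interval of miR-25* in the shared library lies above both others.

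In level, the shared library lay below both other libraries, with both counting intervals of the ratio excluding 1, for 3 of the 24 starred names whose mean reached 1 RPM, against 16.2% of all 148 such names. miR-30a* stood at 0.433 times fibrosis 1 (0.317 to 0.586) and 0.488 times normal 1 (0.355 to 0.664). miR-28* stood at 0.509 (0.283 to 0.883) and 0.506 (0.282 to 0.876), and miR-30e* at 0.319 (0.116 to 0.763) and 0.371 (0.133 to 0.905). The shared library lay above both others for 0 of the 24 starred names, against 10.8% of all 148.

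The comparison of fibrotic with normal liver that the labels imply was fitted with limma on log2(RPM + 1) over all 294 names seen in any library, with the shared library counted once under either label, so that 2 libraries stood against 1. A fold change on that scale understates the change of low miRNAs. No starred name passed an adjusted p of 0.05 (Benjamini-Hochberg over all names), and no other name did (0% called in either fit). With the shared library as fibrosis the smallest adjusted p of the 84 starred names was 0.295, and 13 of them (15.5%) had an unadjusted p under 0.05, against 12.2% of all names. With it as normal the smallest adjusted p was 0.248, and 12 (14.3%) had an unadjusted p under 0.05, against 9.18% of all names. The starred names in these counts had 1 to 5 reads in the first fit and 1 to 4 reads in the second, over all 3 libraries. In each of them the 2 libraries on the same side had equal reads, mostly 0, so their spread was near 0 and the p small. Most entered the fit only through a few reads in the library on the other side. These percentages therefore cannot show a change in starred names. On the recovered reads edgeR's quasi-likelihood test called 0 names in either fit, with 1 and 0 starred names at an unadjusted p under 0.05. DESeq2 called 1 name, miR-146b, with the shared library as fibrosis, and 0 as normal, with 0 starred names at an unadjusted p under 0.05 in either. The p-values measure only the spread between these libraries, which may be technical.

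Fibrosis 1 and normal 1, which each stand under 1 label, were also compared alone. This describes the 2 libraries and not the conditions. Among 22 starred names whose mean over the pair reached 1 RPM, 8 had a ratio above 1 and 14 below, and the median log2 ratio was -0.21, against -0.13 over all 147 names. The counting interval lay above 1 for 0 starred names (13.6% of all names) and below 1 for 1 (22.4% of all names). Over all names the 20 higher and 33 lower became 24 and 26 with TMM factors and 35 and 14 with the starred reads as the total. Intervals of starred names were wide, since their median was 46.5 reads over both libraries together.

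The starred name below 1 was miR-23b*, with 33 reads in fibrosis 1 and 58 in normal 1, a ratio of 0.579 (0.366 to 0.902). With the starred reads as the total the ratio was 0.647 (0.409 to 1.01). The shared library, at 6.92 RPM, lay between the others, and the arm share of miR-23b* had overlapping intervals in all 3. A ratio past 1.5-fold was seen for 5 of the 22 starred names, against 19% of all names: miR-27b* (11 against 5 reads), miR-200b* (14 against 9) and miR-872* (17 against 11) were higher in fibrosis 1, and miR-23b* and miR-362* (8 against 15) lower. miR-23b* and miR-27b* lie in the same cluster and had ratios on opposite sides of 1, 0.579 and 2.24 (0.717 to 8.22). The ratios of the most abundant starred names were 0.837 (0.664 to 1.05) for miR-664-2*, 1.13 (0.890 to 1.43) for miR-30a*, 0.789 (0.577 to 1.08) for miR-30c-2* and 0.858 (0.636 to 1.15) for miR-22*, each with an interval that included 1.

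**Figure D5:**
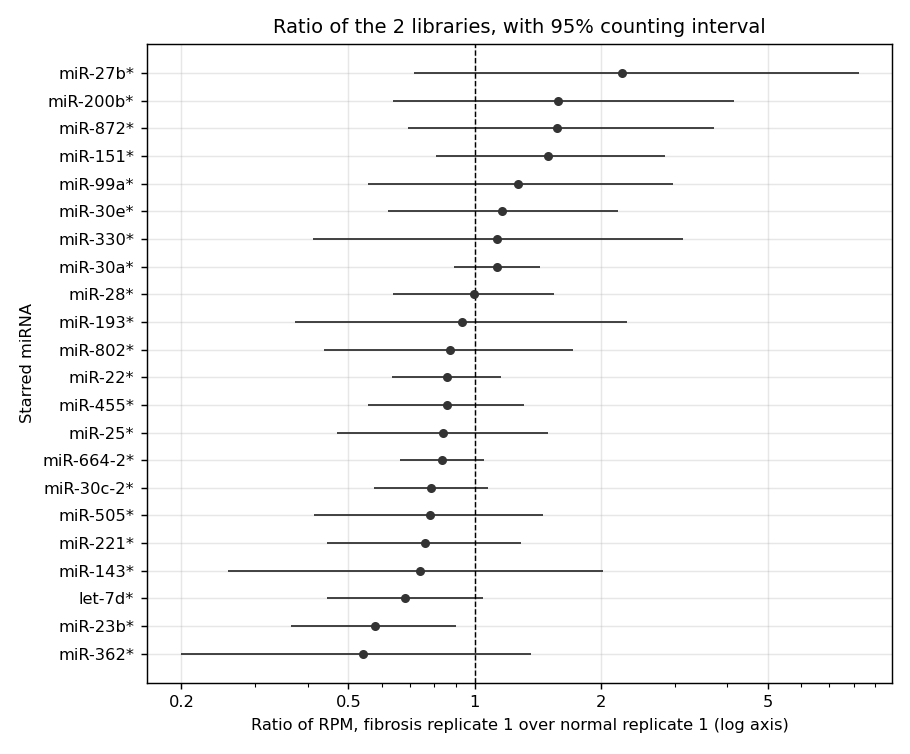
Ratio of RPM in fibrosis 1 over normal 1 (horizontal log axis) for the 22 starred names whose mean over these libraries reaches 1 RPM, with bars for the 95% counting interval. Only the interval of miR-23b*, 0.366 to 0.902, lies wholly on one side of 1.

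Grouped by hairpin family, the miR-30 list had the highest summed level of the lists made: all 5 starred members were seen, 4 of them in all 3 libraries, with sums of 37.4, 37.5 and 28.2 RPM in fibrosis 1, normal 1 and the shared library. miR-30d*, with 2 reads in normal 1 beside 2709 on miR-30d, was the member not seen in each. The let-7 and miR-98 list had 6 of 11 starred members seen and 6.76, 8.77 and 8.65 RPM, mostly let-7d*. The hepatocyte list had 6 of 8 seen and 144, 170 and 159 reads, most of them on miR-22*, whose partner is not restricted to hepatocytes, and miR-455*, within a collagen gene. Of the miR-29 list 3 of 4 were seen, at 4, 2 and 5 reads. The miR-23, miR-24 and miR-27 list had 4 of 6 seen, the miR-17/92 and paralogous clusters 5 of 11, the miR-99, miR-100, miR-125 and miR-10 list 4 of 5, and the Clcn5 cluster 2 of 4.

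Lists of other cell types held few reads. Of the 33 starred names of the imprinted Dlk1-Dio3 locus, active mainly in embryo and brain, 1 was seen, miR-485*, with 2 reads in normal 1. Of 12 neuronal starred names 3 were seen, with 4, 2 and 3 reads per library, and of 6 muscle names 0. The mesenchymal list had 3 of 4 seen (13, 24 and 22 reads), the leukocyte list 2 of 4 (6, 4 and 9 reads) and the epithelial list 1 of 5, miR-200b*, at 2.01, 1.27 and 1.57 RPM. Across all 235 starred names 35.7% were seen, a lower percentage than in the mesenchymal and leukocyte lists, which hold 4 names each. In bulk tissue fewer cells of a type and less RNA per cell cannot be told apart.

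The first base of the arms was also read. It is not independent of the choice by name, since the asterisk marks the arm judged minor and a kept strand often begins with U or A. Of the 84 starred names seen, 54 were matched to a RefSeq mature sequence, 34 on the 3p side and 20 on the 5p side, and 51 had both arms. Among these 51 pairs the starred arm began with U in 5 (9.80%) and the unstarred arm in 29 (56.9%), against 36.2% of 693 rat mature names in that table. C opened 23 starred arms (45.1%) and 4 unstarred arms (7.84%), against 21.6% of all. The median GC content was 50% in starred and 45.5% in unstarred arms, and the median length 22 bases in both. In the 17 pairs whose starred share exceeded 10%, locus-numbered names included, U opened 1 starred arm and 11 unstarred arms. This count has no minimum of reads, and in the 13 of them with at least 20 reads in the pair U opened 0 starred arms and 8 unstarred arms. These are descriptions of sequences, and the arm of 1 member can resemble that of another in the same family. Some arms are counted more than once. miR-30c-5p and miR-181a-5p are counted under both of their starred names, and let-7a-1* and let-7c-2* have the same sequence.

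Few starred arms shared a seed with each other. miR-30c-1* and miR-30c-2* have the same seed, as do miR-99a* and miR-99b*, and let-7a-1*, let-7c-2* and let-7b*. RefSeq gives let-7a-1* and let-7c-2* the same sequence at 22 of 22 bases, and both were listed with the same reads, 3 in fibrosis 1, 2 in normal 1 and 2 in the shared library. Their loci cannot be told apart, and the starred totals count these reads under both names.
let-7a-1* (let-7a-1-3p): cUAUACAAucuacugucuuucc
let-7c-2* (let-7c-2-3p): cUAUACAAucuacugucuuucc
let-7b* (let-7b-3p): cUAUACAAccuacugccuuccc

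Of the 84 names, 81 were matched to a RefSeq hairpin, and 38 of these (46.9%) lay within the span of a protein-coding gene, close to the 50.2% of all 466 rat hairpins. Of 17 pairs of hairpins at most 10000 bases apart, 10 differed by more than 2-fold in starred reads and 7 did not. Where either had at least 20 reads, 5 of 6 pairs differed by more than 2-fold: let-7d* had the 39, 58 and 49 reads given above and let-7a-1* 3, 2 and 2, while over the 3 libraries together miR-23b* had 135 and miR-27b* 23, miR-25* had 92 and miR-106b* 5, miR-30e* had 52 and miR-30c-1* 22, and miR-362* had 29 and miR-501* 1. miR-145* and miR-143*, opposite arms of a smooth muscle pair, were closer, with 28 and 23 reads over the 3 libraries. Most of the other 11 pairs had fewer than 10 reads on either name, and miR-466b-2* and miR-466b-1* had 14 and 13. Starred names of hairpins further apart were not compared, so these counts do not show a trait of neighbours.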

How the data were processed

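Small RNA libraries of total liver RNA were prepared with an Illumina kit, per the labels' protocols. CASAVA 1.4 and build rn5 are named in the submitters' processing notes. No source used here gives the aligner, the annotation or how reads matching several miRNAs were counted. The deposited values are RPM computed by the authors. Divided by the worth of 1 read, 100% of the nonzero values came within 0.01 of a whole number.

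Groups follow the tissue label. The members and the lists were chosen with earlier results of these data known. Named members are the 12 with the highest mean RPM, pairs in which the starred name led, pairs with at least 1000 unstarred reads and the lowest shares (9 tied at 0), and members whose ratio or share intervals stood apart. Other members are named as family examples, chosen after their values were seen. Shares and ratios carry exact (Clopper-Pearson) 95% intervals. limma 3.58.1 (R 4.3.3) used a mean-variance trend, and edgeR 4.0.16 and DESeq2 1.42.0 ran on the recovered reads. The limma fit was also run on simulated reads. Only names with a mean of at least 1 RPM were changed in them, and most starred names seen lie below that. The simulation therefore does not show how often a change in most starred names would be found. Other steps ran in Python 3.11.15 with pandas 2.3.3, scipy 1.17.1, numpy 2.4.6 and, for plots, matplotlib 3.10.9. The arm of a starred name without a locus number was taken from the naming history, not from the files. Positions are those of GRCr8, not of rn5.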

Additional observations from a re-analysis of the deposited data

How the results depend on the processing

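Counts of detected starred names depended on the minimum: 84 at 1 read in any library became 42 at 3 reads, 24 at 10 reads and 43 when all 3 libraries were required, and leaving out 1 library gave 74 to 76. The median starred share of 0.118% became 0.0653%, 0.163% and 0.0155% with at least 10, 100 and 1000 reads in a pair and 0.0277% with locus numbers dropped, and lay between 0.0228% and 0.104% with 1 library left out (0.0229% without the shared library). The 7 of 76 pairs led by the starred name became 3 of 55 and 0 of 27 with at least 100 and 1000 reads, so the proportion fell too. The 7 pairs had between 35 and 164 reads each. With any 1 library left out the number was 6. The single counting interval off 1 became 0 with the starred reads as total, 0 at a mean of at least 10 RPM and 5 when a 1.5-fold ratio was used. With the shared library as fibrosis, DESeq2 called 1 name, no starred one. All other limma and edgeR settings called 0. With both files as labelled, the same library stood in each group, which draws the groups together. With a replicate block added, the difference at replicate 2 is 0 for each name. The ordinary t then has the same size for each name that differs at replicate 1, whatever the data. These fits with both files called 0, but they cannot test the comparison. The replicate 2 files are identical, so whether the numbers pair samples could not be examined. Leaving out a library from either 3-library fit leaves 1 on each side and no test.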
